A study of Bos taurus with 9 samples.

Results

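The loci described here are the regions of the bovine genome, covered by small RNA reads of follicular fluid extracellular vesicles (EVs), that spanned more than 50 bases. They were chosen by their length alone, counted from the deposited start to the deposited end, and 451 of the 101889 loci passed. Small RNA was sequenced from EVs in 9 samples of cow follicular fluid, 3 for each follicle size. The size groups were small follicles of 3 to 5 mm (replicates 1, 2 and 4), medium follicles of 6 to 9 mm (replicates 5, 6 and 8) and large follicles of more than 9 mm (replicates 10, 11 and 12). The animals had no treatment in the labels. Each sample was a pool of fluid from follicles of a size gathered on a collection day. The study describes 3 collections, each giving fluid of all 3 sizes, but the labels do not say which samples came from the same day. The tests therefore leave this matching out and treat the 9 pools as independent. The p-values rest on the spread between pools, and the follicles inside a pool are averaged.

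Follicular fluid derives from blood plasma and from secretions of cells of the follicle, and the source of its EVs was not tested here. EVs are membrane-bound particles that cells release, and those of follicular fluid carry RNA that granulosa and cumulus cells can take up. Their small RNA includes microRNA, which are cut from hairpin precursors, and fragments of longer RNA such as ribosomal RNA, transfer RNA, Y RNA and mitochondrial transcripts. Longer RNA gives reads that begin and end at many places, and these reads can tile a stretch wider than any of them. Genes for many structured RNA occur in several copies, as arrays or scattered over chromosomes. The annotation of the build used by the authors, UMD3.1, and its sequence were not used here, so that loci are given by position and no gene is named.

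A locus was defined by the authors from the mapped reads of the 9 samples together, as the unbroken run of bases whose depth was no lower than a set share of that of the deepest base, a limit well below that depth. Reads were sequenced for 50 cycles, so every locus here was wider than any one read. The locus identifiers hold a number that was read here as the pooled depth summed over the bases of the locus. Divided by the length, its lowest value over all loci was 45, which is the minimum depth that the authors set. Divided by the pooled count, it gives the bases of a locus that a count covered. The loci over 50 bases had a median of 25.9 bases per count (range 11.3 to 53.3), which was 46.2% of the length of the locus. Loci of 31 to 35 bases had a median of 32.4 bases per count, or 95.5% of their length. A count thus covered about the whole of a shorter locus and a part of a locus over 50 bases. At 335 of the 451 loci (74.3%) a count covered no more than 50% of the length, and at 365 it covered under 30 bases. The value was over 45 bases at 9 loci. Of these, 7 were loci of 51 or 52 bases on chromosome 25 and made up a group with a mean of 47.2 bases per count. It was above the length of the locus at 1 locus here and at 178 of all loci, so that this reading of the identifier is not exact.

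Lengths ran from 51 to 90 bases, with quartiles of 53 and 61 and a median of 56. The threshold did not fall at a gap, since 70 loci had 51 bases and 111 had 50. Just inside it, the 51-base loci with the highest counts were chr25:32384776-32384826 (+) with a total of 10506 counts and chrX:62081646-62081696 (-) with 5124. Just outside it, the 50-base loci with the highest counts were chr18:50715742-50715791 (-) and chr18:50716762-50716811 (-), each with 4979. The first of these 50-base loci had 82.5, 118 and 94.8 counts per 1000000 counts of the sample (cpm) in small, 15.8, 24.1 and 51.1 in medium and 25.6, 24.1 and 20.6 in large follicles. The small samples of this locus lay above all others.

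The total count per sample ranged from 8941598 to 14664460, and 53534 to 191081 counts of a sample were on loci over 50 bases. The smallest share that 3 counts can show was 2.05e-05% to 3.36e-05% of a sample, and this limit covers counting error only, since reads copied by PCR are not independent molecules. Of the 451 loci, 406 had a count in every sample. Over the 9 samples a locus over 50 bases held a median of 434 counts (range 82 to 63889), against medians of 99 to 168 in the 5 shorter length classes. In 212 of them (47.0%) the mean count of a size group reached 100, compared with 11.6% of all loci. Medium replicate 8 stood apart from the other medium samples. It had the highest cpm of the medium samples at 350 of the 451 loci. It reached the lowest small sample at 242, where medium replicates 5 and 6 did so at 98 and 102. These numbers were not counted over all loci. Over all loci, medium replicate 8 had a median of 7 counts per locus, within the 4 to 7 of the small samples. Medium replicates 5 and 6 had medians of 18 and 23. Trends over the 3 sizes and counts of calls are therefore also given without medium replicate 8.

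Loci over 50 bases had a lower share of the counts in every large than in every small sample. They held 0.443% of the loci and 0.946% of all counts. In small follicles the share was 1.30% in replicate 1, 1.92% in replicate 2 and 1.37% in replicate 4, a mean of 1.53% ± 0.337 (SD, n = 3). In medium follicles it was 0.443%, 0.527% and 1.17% in replicates 5, 6 and 8 (0.714% ± 0.399), and in large follicles 0.591%, 0.605% and 0.706% (0.634% ± 0.0629). The small and the large samples did not overlap, 2 of the medium samples lay below every large sample, and medium replicate 8 lay between the large and the small samples. Large follicles had 0.414 times the share of small follicles. The trend over the size rank gave p = 0.025 in an exact permutation test, two-sided, and 0.050 after Benjamini-Hochberg adjustment over the 6 length classes, which is at the threshold and not under it. The smallest p this test can give is 0.00119. The trend p was 0.0357 in the same exact test without medium replicate 8. It was 0.0554 without small replicate 2, where the ratio of large to small was 0.474. Between 2 sizes, 3 samples against 3 cannot reach an exact permutation p below 0.1, which was the p of large against small and of medium against small. Large follicles had 0.888 times the share of medium follicles (exact permutation p = 1), and without medium replicate 8 the ratio turned to 1.31 (exact permutation p = 0.1). Each sample's total is fixed by sequencing, so fewer vesicles, less RNA of these loci per vesicle and more RNA of other loci cannot be told apart.

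**Figure D1:**
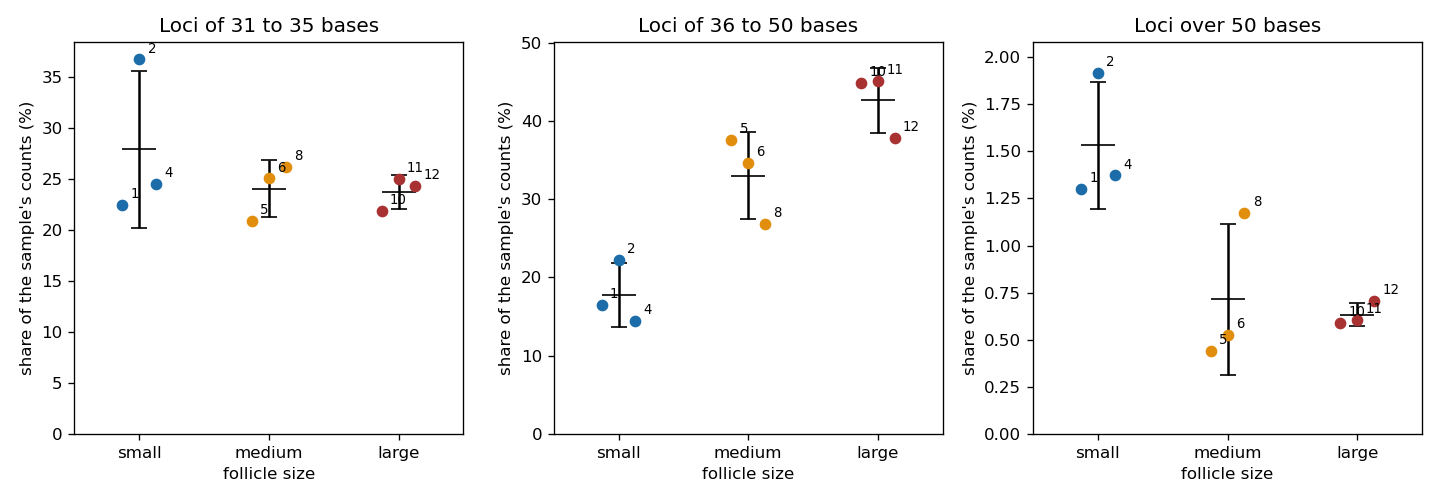
Share of the sample's counts (y axes, %) on loci of 31 to 35, 36 to 50 and over 50 bases, by follicle size. Points are samples with their replicate number, bars the mean and SD of 3 samples; on loci over 50 bases the small samples lie between 1.30% and 1.92% and the large samples between 0.591% and 0.706%, while on loci of 36 to 50 bases the large samples are the highest.

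The change went the other way from that of the next shorter loci. The share of loci of 36 to 50 bases rose with follicle size, from 17.8% ± 4.06 in small through 33.0% ± 5.50 in medium to 42.6% ± 4.11 in large follicles (SD, n = 3; exact permutation trend p = 0.00119, adjusted 0.00714, and 0.00357 without medium replicate 8). Per 100 counts on these loci there were 7.88, 8.61 and 9.50 counts on loci over 50 bases in small follicles. There were 1.18, 1.52 and 4.36 in medium and 1.32, 1.34 and 1.87 in large follicles. The log2 of this ratio was 2.54 lower in large than in small follicles (exact permutation trend p = 0.00833), and the trend p was 0.025 without medium replicate 8. Against loci of 31 to 35 bases, whose own share had an exact permutation trend p of 0.360 (0.439 without medium replicate 8), the ratio was 5.81, 5.23 and 5.60 per 100 in small, 2.12, 2.10 and 4.49 in medium and 2.70, 2.42 and 2.91 in large follicles. This log2 ratio was 1.05 lower in large follicles (exact permutation trend p = 0.0345, and 0.0357 without medium replicate 8). When both classes were limited to loci with a mean of at least 100 counts in a size group, it was 0.49 lower with p = 0.0738 in the exact permutation test. The trend p of that ratio was also above 0.05 when any one of small replicates 1, 2 and 4 or large replicates 10 and 11 was left out, with values of 0.0554 to 0.0714 in the exact permutation test. Loci over 50 bases shared the fall of their share with loci of 18 to 24 bases, the lengths of mature microRNA, whose share was 27.1% in small and 6.57% in large follicles (exact permutation trend p = 0.00595, adjusted 0.0179, and 0.0143 without medium replicate 8).

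Large follicles had lower means in each range of lengths. Loci of 51 to 55 bases (207 loci) had a summed 8317 ± 1881 cpm for small, 3757 ± 2130 for medium and 3891 ± 135 for large follicles (SD, n = 3), 0.468 times as much in large as in small. The ratio of large to small was 0.309 for the 127 loci of 56 to 60 bases, 0.361 for the 84 loci of 61 to 70 bases and 0.500 for the 33 loci of 71 to 90 bases. The mean length weighted by count was 58.2 ± 0.0671 bases for small, 58.0 ± 0.187 for medium and 58.0 ± 0.292 for large follicles, and its trend did not pass (exact permutation p = 0.206, and 0.225 without medium replicate 8).

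The counts were concentrated on few loci, and the first few took the most in small follicles. Over all samples 23 loci held 50% of the counts, 152 held 90%, and the 226 loci with the lowest totals held 4.85%. Ranked by mean share over the 9 samples, the first locus held 8.52%, 7.75% and 7.97% of the counts on loci over 50 bases in small, 4.75%, 5.54% and 5.11% in medium and 5.59%, 5.56% and 5.08% in large follicles. All small samples lay above all others (exact permutation trend p = 0.0202, adjusted over 3 measures 0.0202). The first 10 held 39.5% ± 2.14 for small, 32.5% ± 4.47 for medium and 29.7% ± 1.64 for large follicles (SD, n = 3; exact permutation trend p = 0.00952, adjusted 0.0179). The effective number of loci, the inverse of the summed squared shares, was 33.3, 38.9 and 36.9 in small, 54.3, 59.5 and 58.1 in medium and 52.5, 56.2 and 63.3 in large follicles (exact permutation trend p = 0.0119, adjusted 0.0179). The trend p of the 3 measures was 0.0321, 0.025 and 0.0179 without medium replicate 8 in the exact permutation test.

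**Figure D2:**
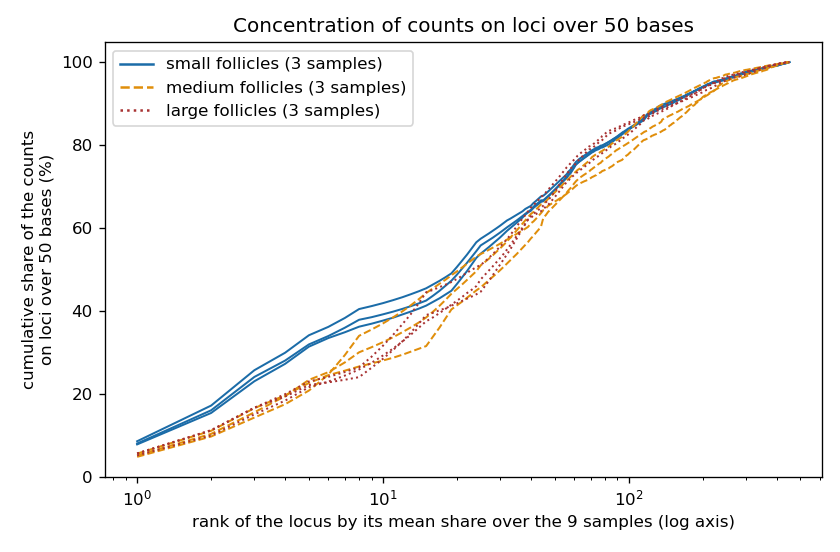
Cumulative share (y axis, %) of the counts on loci over 50 bases against the rank of the locus by its mean share over the 9 samples (x axis, log scale), one line per sample, solid for small, dashed for medium and dotted for large follicles. The small samples begin highest, at 7.75% to 8.52% for the first locus, and the lines come together as more loci are added.

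The concentration also depended on what was taken as a locus, because many loci had equal counts in all samples. The 3 loci with the highest totals lay on chromosomes 8, 18 and 2, were each 55 bases long and held 63889, 63825 and 63708 counts. Loci were placed in a count group when their counts in the 9 samples differed from the group's mean by no more than sampling noise (chi-square p above 0.001). Their length also had to be within 1 base of that of the group's locus of highest total. This gave 176 count groups, of which 76 held 2 or more loci. These 76 groups held 351 of the 451 loci (77.8%) and 85.6% of the counts, 62 of them reached over 2 or more chromosomes, and the largest had 23 loci. Loci of low count can match within sampling noise, but of the 127 loci with a total of at least 1000 counts 96 were in such a group too. How the authors assigned reads that map to several places is not given in the sources used here, so whether the loci of a group count the same reads was not tested. The loci of a group are therefore described together. The tests of single loci below still count each locus by itself, so that such counts are not numbers of independent loci. With the count groups as units the first group held 24.2% ± 1.34 of the counts in small and 16.1% ± 0.920 in large follicles (SD, n = 3; exact permutation trend p = 0.0190). The first 10 groups, by contrast, held 64.7% ± 0.672 for small, 61.5% ± 3.32 for medium and 66.2% ± 0.916 for large follicles (SD, n = 3; exact permutation trend p = 0.542). The effective number of groups was 12.1 ± 0.840, 17.8 ± 0.333 and 14.3 ± 2.20 in small, medium and large follicles (exact permutation trend p = 0.342). Without medium replicate 8 these trends had p of 0.0321, 0.561 and 0.357 in the same exact test. When loci within 1000 bases of each other were summed in place of the count groups, the first of 252 units held 19.9% ± 0.854 for small, 18.2% ± 1.29 for medium and 12.98% ± 1.38 for large follicles (SD, n = 3; exact permutation trend p = 0.00238). The effective number of these units was 14.3 ± 0.851, 17.3 ± 0.974 and 20.2 ± 0.413 (exact permutation trend p = 0.00119), so that the small samples remained the most concentrated, while the first 10 units held 62.6%, 59.1% and 60.2% (exact permutation trend p = 0.229). Without medium replicate 8 the p of these 3 trends was 0.00714, 0.00357 and 0.268 in the exact test.

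The count groups with the most counts differed in how their levels went from small to large follicles. The first group, the 3 loci named above, were chr8:25410017-25410071 (+), chr18:58243270-58243324 (+) and chr2:66270322-66270376 (+), and together they held 20.3% of the counts on loci over 50 bases. The chromosome 8 locus had 1110, 1487 and 1094 cpm in small, 211, 292 and 599 in medium and 330, 336 and 359 in large follicles. Every small sample lay above every other sample. The second group consisted of 7 loci of 51 or 52 bases on chromosome 25 and held 7.75% of the counts. Its mean per locus was 93.3, 139 and 91.0 cpm in small, 65.3, 37.0 and 141 in medium and 153, 130 and 117 in large follicles, so that the small and large samples overlapped. In the third group, chr3:35810298-35810354 (+) had 549, 804 and 541 cpm in small, 142, 163 and 456 in medium and 193, 163 and 233 in large follicles. Its partner chr2:66268411-66268467 (+) had means of 627 ± 146, 255 ± 179 and 193 ± 31.8 cpm (SD, n = 3). The small and large samples of both loci did not overlap.

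In further groups of high count the medium samples lay at different heights between the other sizes. The 66-base loci chr18:58242050-58242115 (-) and chr2:66268267-66268332 (+) formed a group with 280, 262 and 269 cpm per locus in small, 207, 55.1 and 281 in medium and 67.7, 37.9 and 103 in large follicles. The medium samples covered the range from the large to the small samples. The loci of 59 or 60 bases beside them, chr18:58241128-58241186 (-), chr18:58242135-58242194 (-) and chr2:66268188-66268246 (+), had 197, 304 and 198 cpm per locus in small, 41.3, 49.5 and 131 in medium and 44.3, 33.9 and 66.3 in large follicles. Here 2 of the medium samples lay among the large samples. The single locus chr2:66269182-66269238 (+) with 18020 counts matched no other. It had 264, 400 and 278 cpm in small, 171, 100 and 219 in medium and 66.0, 39.8 and 96.3 in large follicles, and no sample of a size overlapped with those of another size.

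**Figure D3:**
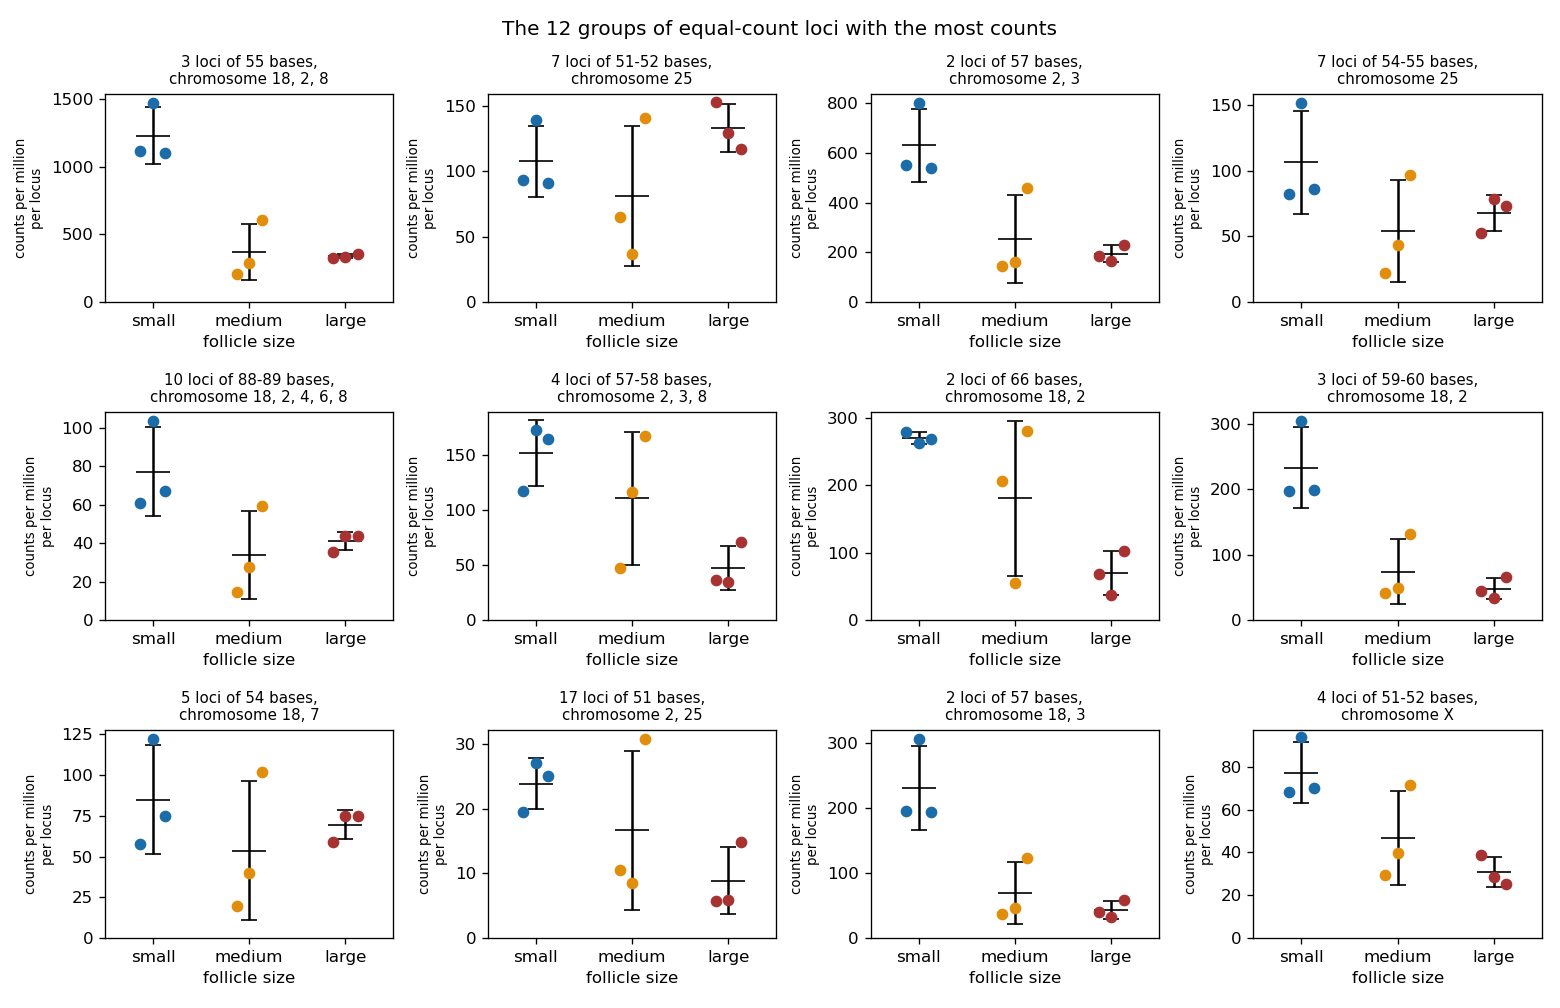
Cpm per locus (y axes, each from 0) by follicle size (x axes) in the 12 count groups of loci over 50 bases with the most counts, titled by the number, length and chromosomes of their loci. Points are samples, bars the mean and SD of 3 samples; the small samples are highest in the first group, with a mean of 1228 cpm, and overlap with the large samples in the second, with means of 108 and 133 cpm.

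The longest loci also had their highest means in small follicles. The group of 10 loci of 88 or 89 bases was spread over chromosomes 2, 4, 6, 8 and 18. Its members chr8:59158130-59158218 (+) and chr2:66273264-66273352 (+), together with the 90-base locus chr4:61197014-61197103 (-), were the 3 longest loci. The chromosome 8 locus had 63.1, 106 and 67.2 cpm in small, 16.2, 27.2 and 61.8 in medium and 37.8, 43.2 and 45 in large follicles. The 90-base locus, with 769 counts in all, had 9.82, 13.2 and 13.1 cpm in small, 3.31, 6.25 and 11.5 in medium and 4.62, 3.23 and 5.22 in large follicles. At both loci all small samples lay above all large samples, and medium replicate 8 lay above the other medium samples.

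Loci over 50 bases were found on 30 of the 31 chromosomes of the table, the mitochondrial genome included, and chromosome 24 had none. On 16 chromosomes there were fewer than 10. Chromosome 25 had 137 (30.4%), which were 3.82% of its 3582 loci, while 0.443% of all loci were over 50 bases. It held 23.2% of the counts on these loci, followed by chromosome 2 with 30 loci and 20.7%, chromosome 18 with 32 loci and 18.7%, chromosome 8 with 15 loci and 9.64%, and chromosome 3 with 17 loci and 8.02%. The plus strand held 318 loci (70.5%), whereas 50.98% of all loci were on it. Off chromosome 25 it held 183 of 314 (58.3%).

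Within chromosomes the loci lay in clusters. When loci no more than 10000 bases apart were joined, 203 clusters resulted, of which 163 held a single locus. The 3 clusters with the most counts held 156 loci and 58.3% of the counts. The first was chr25:32376590-32472025, a span of 95436 bases with 129 loci, all on the plus strand and in 26 count groups. The span held 1111 loci of any length and 6.47% of all deposited counts, and 3.35% of the counts in it were on loci over 50 bases. The second was chr2:66268188-66273352, where 14 loci on the plus strand, in 13 count groups, held 19.6% of the counts on loci over 50 bases within 5165 bases. The third was chr18:58223044-58243446 with 13 loci, 4 on the plus and 9 on the minus strand, and 15.7% of the counts. Smaller clusters were chr8:25409394-25410071 (2 loci, 7.84%), chr3:35810298-35810467 (2 loci, 4.83%) and chrX:62078287-62081696 (8 loci, all on the minus strand, 3.26%).

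Some pairs of count groups recurred in the same order in different clusters, most of them at nearly the same distance. On chromosome 2, a 59-base locus of the group with 11505 counts was followed in the 5′ to 3′ direction by the 66-base locus after 20 bases. On the minus strand of chromosome 18 the loci of the same groups followed each other after 19 bases. The 57-base loci of the third group were followed after 56 bases on chromosome 2 and after 55 bases on chromosome 3 by a locus with 10267 and 10089 counts. A 54-base locus was followed after 239 bases by a locus of 55 or 56 bases on chromosomes 18 and 7. A 51-base locus was followed after 180 bases on chromosome 2, and after 181 bases at 3 places on chromosome 25, by a locus of 57 or 58 bases. Of the 7 pairs of groups that followed each other at 2 or more places, the distances differed by at most 1 base in 5 and by 67 and 545 bases in the other two.

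The chromosome 25 cluster had a repeated layout of its own. The 7 loci of the second count group began at its 5′ end and were spaced by 664 to 2921 bases from start to start. The group of 7 loci with 47.2 bases per count began 136 or 137 bases after the start of one of them at 5 of its 7 places, leaving a gap of 84 or 85 bases. At the other end, the fourth count group (7 loci of 54 or 55 bases) was spaced by 833 to 966 bases. Between these, the largest count group, 23 loci of 60 to 62 bases with 662 to 785 counts each, had its loci 895 to 6430 bases apart.

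The weight of chromosome 25 rose with follicle size. It held 18.3%, 19.6% and 17.8% of the counts on loci over 50 bases in small, 26.7%, 21.3% and 25.5% in medium and 34.1%, 34.6% and 30.7% in large follicles. The 3 sizes did not overlap, and the exact permutation trend p was the smallest possible (0.00119, adjusted over 3 measures 0.00357). It was 0.00357 in the same exact test without medium replicate 8. Among the loci over 60 bases alone, the share of chromosome 25 was 1.29 percentage points higher in large than in small follicles (exact permutation trend p = 0.540). In cpm the chromosome 25 cluster summed to 2349, 3708 and 2399 in small, 1175, 1101 and 2960 in medium and 2009, 2081 and 2152 in large follicles. The cluster on chromosome 2 went from 2914, 3990 and 3017 cpm in small to 862, 804 and 1117 in large follicles. The chromosome 25 cluster thus had the smaller difference in cpm, while its share of these loci grew. The plus strand rose with it, from 79.7% ± 0.313 in small through 80.4% ± 0.584 in medium to 83.2% ± 0.484 in large follicles (SD, n = 3). Its exact permutation trend p was 0.00357, adjusted 0.00536, and 0.0107 without medium replicate 8. All loci of the chromosome 25 cluster lay on the plus strand, and the strand was not tested without them.

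**Figure D4:**
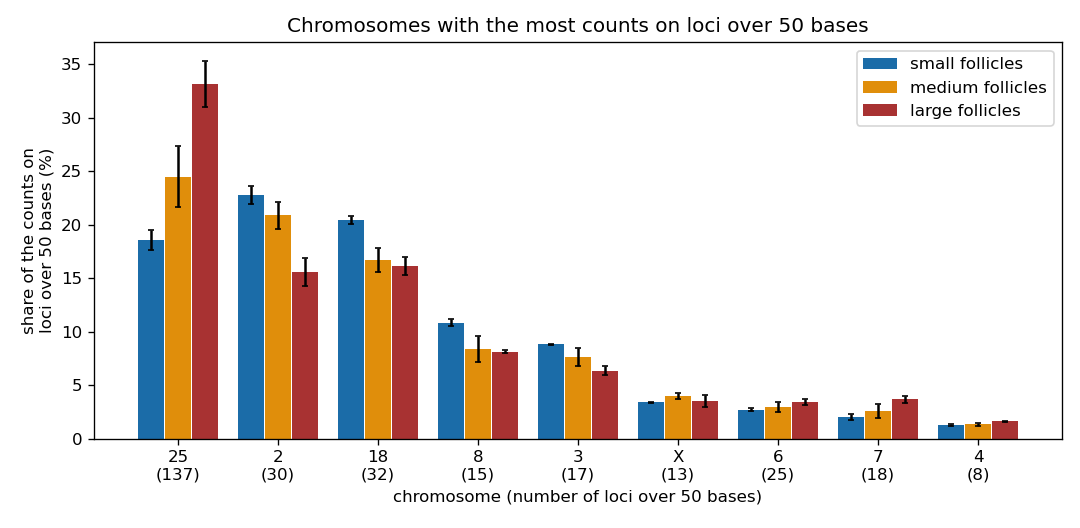
Share of the counts on loci over 50 bases (y axis, %) on the 9 chromosomes with the most of these counts (x axis, number of loci in brackets), as the mean of 3 samples with its SD for small, medium and large follicles. Chromosome 25 goes from a mean of 18.6% in small to 33.1% in large follicles.

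The mitochondrial genome, which codes for ribosomal RNA, transfer RNA and subunits of the respiratory chain, had 11 loci over 50 bases, which were 13.9% of its 79 loci. All lay on the plus strand between positions 783 and 10232. They held 1.06%, 1.18% and 1.12% of the counts on loci over 50 bases in small, 1.16%, 1.46% and 2.03% in medium and 0.586%, 0.572% and 1.49% in large follicles. The samples of the 3 sizes overlapped (exact permutation trend p = 0.555, and 0.414 without medium replicate 8). The locus with the highest total, MT:2761-2814, had 37.3, 56.1 and 39.7 cpm in small, 12.0, 21.0 and 52.6 in medium and 6.78, 7.04 and 18.6 in large follicles. The next, MT:2234-2289, had 31.2, 49.9 and 33.1 cpm in small, 11.3, 12.6 and 53.8 in medium and 9.55, 5.57 and 26.1 in large follicles. At MT:783-842 the values were 18.5, 32.9 and 22.5, then 7.12, 11.9 and 46.7, then 6.37, 6.94 and 22 cpm. Medium replicate 8 was the highest medium sample at all 3, and large replicate 12 the highest large sample.

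Each locus was then tested between sizes with edgeR's quasi-likelihood test on all 85601 loci that passed the filter on low counts, with Benjamini-Hochberg adjustment over all of them. Of the 451 loci 450 passed the filter. The exception was chr25:31033146-31033198 with 83 counts in all. Values are given under 2 scalings, because the scaling shifted all loci. Under TMM normalization, which assumes that most loci do not change, the median log2 fold change of large over small follicles was 0.09 over all loci tested. Scaled by total count, it was 1.81. The TMM factors were 0.409 to 0.620 in small and 1.31 to 1.96 in large follicles. The median count per locus was 4 to 7 in small and 14 to 19 in large follicles. Medium replicates 5, 6 and 8 had factors of 1.45, 1.91 and 0.725 and medians of 18, 23 and 7.

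Of the 450 loci over 50 bases, 269 fell from small to large follicles and 0 rose under TMM (adjusted p under 0.05 in edgeR's quasi-likelihood test), while 5.86% of all loci tested were called, 5.63% as lower and 0.231% as higher. Scaled by total count, 211 fell and 54 rose, against 64.5% of all loci called, 5.02% as lower and 59.5% as higher. A set of 197 loci fell under both scalings, and 0 fell under TMM and rose under total count. Of all loci tested no more than 5.02% can have fallen under both, since that share fell by total count. The median log2 fold change was -2.83 under TMM and -1.17 under total count. Loci over 50 bases held a median of 434 counts, against medians of 99 to 168 in the 5 shorter length classes. Shares called and fold changes were not compared between length classes at matched counts. In the other length classes the share called under TMM was 35.9% under 18 bases, 23.2% at 18 to 24, 6.33% at 25 to 30, 2.99% at 31 to 35 and 5.13% at 36 to 50 bases. In cpm, all large samples lay below all small samples at 295 of the loci (5.61% of all loci tested) and above them at 71 (69.7% of all loci tested). The number called under TMM was 82 without large replicate 11 (2.81% of all loci called) and 91 without large replicate 10 (3.16%). It was 157, 172 and 136 without small replicates 1, 2 and 4 (4%, 4.73% and 3.81% of all loci) and 357 without medium replicate 8 (8.18%), each time with 0 higher. With count groups as units, 106 of 176 fell and 0 rose under TMM (5.65% of all units called).

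**Figure D5:**
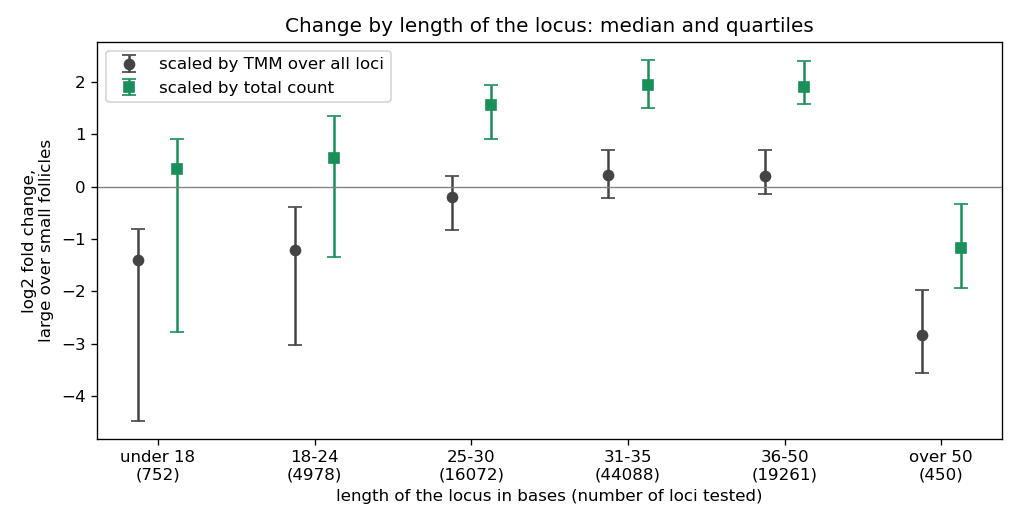
Log2 fold change of large over small follicles (y axis) by length of the locus (x axis, number of loci tested in brackets). Points are medians and bars the quartiles, round for TMM over all loci and square for total count. Loci over 50 bases have the lowest median under each scaling, -2.83 and -1.17, and the classes are not matched for count.

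The 12 loci with the highest totals all fell under both scalings, but 10 of the 12 lost the call under TMM when a single sample was left out. At chr8:25410017-25410071 the log2 fold change of large over small follicles was -3.54 ± 0.67 (SE) under TMM (adjusted p = 0.00764, edgeR's quasi-likelihood test) and -1.85 ± 0.30 by total count (adjusted p = 0.000397). The partners on chromosomes 18 and 2 had a log2 fold change of -3.57 each under TMM. The largest change of the 12 was at chr3:63639233-63639289 (-), where 198, 310 and 195 cpm in small, 38.8, 47.8 and 125 in medium and 39.7, 31.9 and 57.1 in large follicles gave -4.08 ± 0.76 under TMM (adjusted p = 0.00708) and -2.45 ± 0.41 by total count (adjusted p = 0.000429). The single locus chr2:66269182-66269238 had -3.84 ± 0.67 (adjusted p = 0.00499) and -2.22 ± 0.35 (adjusted p = 0.000382). These last 2 loci alone among the 12 were called whichever of the 9 samples was left out. Under TMM 2 of the 12 were called without large replicate 10 (highest adjusted p 0.104) and 2 without large replicate 11 (0.108). The number was 10 without small replicate 1, 8 without small replicate 4 and 12 without any other sample. At chr8:25410017-25410071 the adjusted p was 0.0532 both without large replicate 10 and without large replicate 11, and its log2 fold change was then -3.49 and -3.41.

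No locus of the second or the fourth count group, both on chromosome 25, passed in large against small follicles with all samples. The 7 loci of the second count group had a median log2 fold change of -1.39 under TMM and 0.31 by total count, with no call (lowest adjusted p 0.279 and 0.401, edgeR's quasi-likelihood test). One of them, the 51-base locus chr25:32384776-32384826, had 92.1, 148 and 90.5 cpm in small, 63.9, 37.7 and 143 in medium and 152, 126 and 120 in large follicles. The fourth group had medians of -2.32 and -0.65, and in the group with 47.2 bases per count none of the 7 loci passed under either scaling. These calls depended on medium replicate 8, which is in neither size compared but enters the spread estimated over all 9 samples. Without it all 7 loci of each of these 3 groups were called lower under TMM (highest adjusted p 0.0193 in the second group), with a median log2 fold change of -1.39 in the second group as before. Without medium replicate 5, 7 loci of the fourth group were called, and 7 of the group with 47.2 bases per count, and without medium replicate 6, 2 of each. The 23-locus group of chromosome 25 had 10.5, 12.2 and 8.52 cpm per locus in small, 6.84, 4.08 and 8.87 in medium and 3.67, 3.88 and 6.29 in large follicles. All its 23 loci fell under TMM and 10 by total count. Under TMM 0 of the 23 passed without large replicate 10 or 11, and 5, 13 and 7 without small replicates 1, 2 and 4. Over the whole cluster, 76 of 129 loci fell under TMM, and 36 fell and 1 rose by total count. In the cluster the number under TMM was 128 without medium replicate 8, 1 without large replicate 10 or 11, and 19, 32 and 19 without small replicates 1, 2 and 4. Of the 321 loci tested elsewhere 193 fell under TMM, and 175 fell and 53 rose by total count. Elsewhere the number under TMM was 90 and 81 without large replicates 10 and 11, and 117 without small replicate 4. Of all loci tested, 5.63% fell under TMM with all samples, and 5.02% fell and 59.5% rose by total count. The share of all loci called under TMM was 8.18% without medium replicate 8, and 3.16% and 2.81% without large replicates 10 and 11. It was 4%, 4.73% and 3.81% without small replicates 1, 2 and 4. None of these counts is a test of a difference between the cluster and other places; that difference was tested as the share of chromosome 25 above.

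Groups on other chromosomes could miss the threshold too. The 5 loci of 54 bases on chromosomes 7 and 18 had 57.6, 122 and 75 cpm per locus in small, 19.6, 39.6 and 102 in medium and 59.1, 75 and 74.7 in large follicles, which overlapped, and none passed (lowest adjusted p 0.157 under TMM). All 5 were called lower under TMM without medium replicate 8 (highest adjusted p 0.00136). The group of 88- or 89-base loci had 10 of 10 called under TMM and 2 of 10 by total count, and under TMM 0 of 10 when any one of the small or large samples was left out. The 90-base locus had -3.15 ± 0.70 under TMM (adjusted p = 0.0195) and -1.46 ± 0.51 by total count (adjusted p = 0.0237), and its call under TMM ended without small replicate 4 (adjusted p = 0.0691), large replicate 10 (0.0868) or large replicate 11 (0.110). At chrX:62081646-62081696, with 70.9, 92.0 and 70.8 cpm in small, 30.2, 36.3 and 72.4 in medium and 39.7, 30.6 and 24.1 in large follicles, the change was -3.04 ± 0.61 (adjusted p = 0.0105, and 0.0699 without large replicate 11) and -1.31 ± 0.37 (adjusted p = 0.0108). Of the 11 mitochondrial loci 5 fell under TMM and 6 by total count, where 5.63% and 5.02% of all loci tested were called as lower. Under TMM 10 were called without medium replicate 8, 0 without large replicate 10 or 11, and 1, 2 and 2 without small replicates 1, 2 and 4. MT:2761-2814 changed by -3.62 ± 0.84 under TMM (adjusted p = 0.0245) and -2.03 ± 0.52 by total count (adjusted p = 0.00728). Its adjusted p under TMM was 0.0593 to 0.122 when any one of small replicates 1, 2 and 4 and large replicates 10 and 11 was left out. MT:2234-2289 did not pass under TMM with -3.01 ± 0.94 (adjusted p = 0.0995) and fell by total count with -1.47 ± 0.59 (adjusted p = 0.0386). MT:783-842 passed under neither scaling, with -2.62 ± 0.94 under TMM (adjusted p = 0.162) and -1.06 ± 0.61 by total count (adjusted p = 0.119). Without medium replicate 8 both were called lower under TMM (adjusted p = 0.00347 and 0.00696), and without large replicate 12 MT:2234-2289 was (0.0455).

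The largest falls from small to large follicles were at loci of low count. The count of chr28:33929036-33929096 (+) was 79, 100 and 46 in small, 7, 1 and 20 in medium and 0, 0 and 3 in large follicles. Its ratio of large to small was 0.0142 (95% exact binomial interval 0.00291 to 0.0421, counting error only), with counts and sample totals each summed over the 3 samples of a size. The other ratios given with such intervals were formed in the same way. At chr19:39059575-39059639 (-) the count was 107, 98 and 83 in small and 3, 0 and 3 in large follicles, a ratio of 0.0222 (0.00809 to 0.0490). At chr10:13319052-13319105 (-) it was 101, 99 and 77 in small and 1, 0 and 5 in large follicles, a ratio of 0.0231 (0.00841 to 0.0509). Their adjusted p was 0.00428, 0.00304 and 0.00168 in edgeR's quasi-likelihood test under TMM. These loci were picked as the largest falls among called loci, so their p-values and intervals are not separate support. They passed the filter on low counts through the small samples, where their counts were high. No locus met the rule for a named rise, since none was called as higher under TMM.

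The loci that rose by total count were mostly of low count as well. The 54 loci had a median total of 146 counts and lay on 23 chromosomes, 2 of them on chromosome 25, and 53 had a total under 1000. The one above 1000, chr25:32458460-32458515 (+), had 6.00, 12.0 and 5.21 cpm in small, 13.5, 20.1 and 17.4 in medium and 30.9, 12.2 and 17.5 in large follicles. It was singled out after its values were seen. Its log2 fold change was 1.39 by total count (adjusted p = 0.0216, edgeR's quasi-likelihood test) and -0.25 under TMM (adjusted p = 0.893), so that its direction turned with the scaling.

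From small to medium follicles 35 loci fell and 0 rose under TMM, against 1.47% of all loci called (1.46% as lower and 0.0105% as higher), and 300 had an unadjusted p under 0.05, as did 9.66% of all loci tested. By total count 114 fell and 20 rose (30.8% of all loci called, 2.72% as lower and 28.1% as higher). In cpm all medium samples lay below all small samples at 194 loci (3.82% of all loci tested) and above them at 37 (37% of all loci tested). The number called depended on single samples. Under TMM 353 fell and 0 rose without medium replicate 8, when 6.82% of all loci were called. The number was 0 without medium replicate 5 or 6 (0% of all loci) and 3, 11 and 4 without small replicates 1, 2 and 4 (0.121%, 0.585% and 0.301%). The largest falls were again at low counts. At chr3:14177613-14177676 (+) the count was 52, 90 and 35 in small and 1, 0 and 9 in medium follicles (ratio 0.0555, 95% exact binomial interval 0.0261 to 0.104). At chr2:127778929-127778985 (+) it was 92, 62 and 68 in small and 1, 5 and 10 in medium follicles (0.0708, 0.0398 to 0.118). At chr23:17870400-17870451 (+) it was 41, 29 and 35 in small and 3, 4 and 6 in medium follicles (0.122, 0.0627 to 0.217). Their adjusted p was 0.0470, 0.0260 and 0.0203 in edgeR's quasi-likelihood test, and all 3 lost the call without small replicate 1 or 4 or medium replicate 5 or 6 (adjusted p of 0.0740 to 0.245). Without small replicate 2 the first and second lost it (0.126 and 0.0549), and without large replicate 11 the first (0.0692). Being picked by the same rule and kept by the filter through the small samples, these loci give no separate support either. The locus with the highest total, chr8:25410017-25410071, had -2.74 ± 0.64 under TMM and did not pass (adjusted p = 0.0637), while by total count it had -1.74 ± 0.30 (adjusted p = 0.0121).

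From medium to large follicles 0 loci passed edgeR's quasi-likelihood test under TMM, and 0% of all loci tested passed. By total count 0 passed too, against 0.161% of all loci, all of them lower. An unadjusted p under 0.05 was found at 76 under TMM and at 6.58% of all loci tested. The exact test of edgeR called 5 (0.583% of all loci tested) and DESeq2 called 5 (1.7% of all loci with an adjusted p). The median log2 fold change was -0.86 under TMM and -0.28 by total count. In cpm all large samples lay below all medium samples at 23 loci (2.4% of all loci tested) and above them at 6 (6.4% of all loci tested). For any difference among the sizes 206 loci passed under TMM (4.67% of all loci tested) and 170 by total count (36.8%). The order of the 3 mean cpm values was falling from small through medium to large at 257 loci and rising at 60, medium was lowest at 98 and highest at 36. Without medium replicate 8 these numbers were 167, 35, 192 and 57, so that medium was then the lowest at the most loci, and without medium replicate 5 medium was lowest at 41. Such orders were not counted over all loci tested, and they compare means of 3 samples without their spread.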

How the data were processed

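Per the labels and the methods of the study, EV RNA of each pool was made into a TruSeq Small RNA library and read for 50 cycles. The authors removed adapters, mapped reads with BWA 0.7.5a to UMD3.1 (both named in the submitters' processing notes), merged the mapped reads of the 9 samples, kept loci with a mean pooled depth of at least 45 per base, and took as the locus the unbroken stretch whose depth was no lower than a set share, well under the whole, of its highest depth. The deposited values are raw counts of reads per locus and sample, without normalization. The locus identifier, a deposited field of another kind, gave the summed depth, whose meaning was read from its values.

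Loci over 50 bases were taken from deposited start and end. Shares used each sample's total count, from 8941598 to 14664460. Values per sample were tested by exact permutation of the 9 samples over the size rank, two-sided. Per-locus tests used R 4.3.3, edgeR 4.0.16 and limma 3.58.1 on all loci passing filterByExpr, in 1 model of the 3 sizes, by edgeR's quasi-likelihood test with Benjamini-Hochberg adjustment, called under 0.05. TMM was the main scaling. Procedures were tested on simulated data. For the per-locus tests the simulated loci were drawn independently and few of them changed, so loci of equal count were not covered. Python 3.11.15, numpy 2.4.6, scipy 1.17.1, pandas 2.3.3 and matplotlib 3.10.9 were used.

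Named loci were the 12 of highest total, the 3 largest rises and falls per pair of sizes among called loci whose normalized counts did not overlap, the 3 longest, the 3 mitochondrial ones of highest total, and the 2 of highest total at 51 and at 50 bases. Members of named count groups and clusters were added. The loci, groups and tests were chosen with earlier results of these data known. Alternatives were other scalings, filters and tests (DESeq2 1.42.0), summed loci, and each sample left out. Gene annotation was not used here.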

Additional observations from a re-analysis of the deposited data

How the results depend on the processing

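Depth limited the loci of low count, whose totals began at 82, and 3 samples per size limited every p-value. Each collection gave fluid of all 3 sizes, but no paired analysis was possible because the labels do not tie samples to a collection. The sizes share no replicate number, and every p-value leaves the matching out. Leaving out each sample in turn, the share of counts in large over small follicles was 0.385 to 0.474, in large over medium 0.746 to 1.31 (1.31 without medium replicate 8), and the log2 ratio to loci of 31 to 35 bases -1.11 to -0.98, while the share of those loci in large over small was 0.775 to 1.01. That ratio was -0.49 with a group mean of at least 100. With count groups summed, the change of the share of the first 10 was 1.51 points in place of -9.82 and that of the effective number 2.21 in place of 21.0, and with loci within 1000 bases summed the share of the first 10 changed by -2.44, all 3 unchanged without medium replicate 8, which is in neither mean. The change of chromosome 25 was 1.29 points over 60 bases. From small to large follicles 269 loci were called, 82 to 357 with a sample left out, 178 (89 higher and 89 lower) with TMM factors from loci over 50 bases, 106 with count groups summed, and 115 with these and total count. Small to medium gave 35 calls, 0 to 353 with a sample left out, 134 by total count, 84 under 0.1, 116 with those TMM factors (79 higher), 63 with a mean of at least 100, 23 with the 2 sizes fitted alone, 126 by edgeR's exact test, 146 by DESeq2, 15 with count groups summed and 74 with these and total count. Medium to large gave 1 with those TMM factors and 5 by the exact test and by DESeq2. TMM factors from loci over 50 bases assume that most of these loci do not change. Calls under them therefore cannot show a shift of these loci as a set. Any difference gave 206, 83 to 355 with a sample left out, 87 with count groups summed and 89 with these and total count. By total count without medium replicate 8, small to medium gave 354 and any difference 381. With all samples, total count called 30.8% of all loci tested from small to medium and 36.8% for any difference. Where no share of all loci called is given here or above, these counts show only how calls moved with the setting. Among named loci, the TMM factors from loci over 50 bases turned chr8:59158130-59158218 to 0.073, chr2:66273264-66273352 to 0.12 and chr25:32384776-32384826 to 1.28, and the last was 0.27 by total count with or without medium replicate 8. Sums of count groups, and sums or total count without medium replicate 8, were chosen after seeing the data. Of 488 values of named loci under alternatives, 387 kept direction and side of the threshold. For values that changed, the cause was not tested.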
